A study of Homo sapiens with 10 samples.

Results

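LCK, FYN, PTPRC, CSK, LAT, LCP2, PRKCQ and CBLB, 8 genes of proximal T cell receptor signalling, were looked up by name in every deposited list of m6A peaks. They were chosen by gene symbol from the pathway, with earlier results of these data known, and are 8 of the 5000 gene names in the lists. Their counts thus describe these 8 genes and not the pathway as a whole. They hold 59 of the 16319 peaks of the 5 libraries, and 92 of 26273 peaks when the list made for each condition is added. Every member had a peak in at least 1 list, and in the libraries all of these peaks lay in the hypoxia and EU lists.

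The m6A mark is a methyl group on adenosine within RNA, and MeRIP-seq finds it by pulling down RNA fragments with an antibody against the mark. The cells were V16A, a prostate cancer cell line that the submitters place under castration-resistant disease. There were 10 samples, 5 pulled down and 5 inputs, and peak lists of the 5 pulled-down samples were used: 2 of hypoxia, 2 of normoxia and 1 labelled EU and 40 min. EU is read here as ethynyl uridine, which marks newly made RNA, and the oxygen condition of that sample is not given in the labels. No oxygen level, exposure time, genotype change or further treatment is given in the sources used here, and nothing says whether the replicates were separate cultures, so their spread may be technical. A further list for each condition carries no replicate number, and the sources used here do not say how it was made.

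When a T cell receptor binds its ligand, the SRC family kinases LCK and FYN phosphorylate the tails of the receptor chains, which recruits the kinase ZAP70. ZAP70 then phosphorylates the adaptors LAT and SLP-76 (the product of LCP2), and the complex built on them opens the calcium, RAS and protein kinase C theta branches. The tyrosine phosphatase CD45 (PTPRC) and the kinase CSK set how active LCK is from opposite sides, and the ubiquitin ligase CBL-B (CBLB) restrains signalling. LCK, LAT, LCP2 and PTPRC are genes of blood cells above all, whereas FYN, CSK and CBLB are used in many tissues.

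The lists differ in length, which sets how many genes could appear in them. Hypoxia replicates 1 and 2 had 2879 and 6621 peaks in 1258 and 2151 genes, normoxia replicates 1 and 2 had 212 and 1563 peaks in 139 and 897 genes, and the EU library had 5044 peaks in 2389 genes. Read depth is unknown, since the lists hold called peaks only. A peak list says where a peak was called, so a gene without one is not thereby free of the mark or silent. In bulk RNA, fewer cells of a type and less RNA per cell cannot be told apart.

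The labelled cell line was checked against marker genes. Of 14 markers of T and NK cells, the hypoxia libraries listed 8 and 9 with a peak, with 4 and 0 in normoxia and 8 in the EU library, with 20 and 18, 6 and 0, and 18 peaks in all. CD2 and NKG7 had 3 and 1, and 2 and 1, peaks in hypoxia, and GZMB, a protease of cytotoxic granules, had 1 and 2, and these 3 also had 1, 2 and 1 in normoxia replicate 1. CD6, IL7R and KLRD1 had none in any list. Markers of B cells had no peak in any list, and of 8 myeloid markers none had one in the 5 libraries and 2, CD68 and FCGR3A, had one in the hypoxia condition list. Of 15 markers of prostate and other epithelial cells, 3 and 4 had a peak in hypoxia, 1 and 6 in normoxia and 8 in the EU library, with 8 and 9, 2 and 16, and 16 peaks. FOXA1, a transcription factor of the prostate epithelium, had a peak in all 5 libraries, while the keratin genes KRT8, KRT18 and KRT19 had none in any list. Normoxia replicate 2, which had none of the T and NK markers, thus had the most of the epithelial ones among the 4 libraries. These values did not follow those of the 8 genes in every library. Normoxia replicate 1 listed 4 of the 14 T and NK markers and 0 of the 8 genes, and the EU library 8 and 3. Hypoxia replicates 1 and 2 listed 8 and 9 of the markers and 4 and 8 of the 8 genes, and normoxia replicate 2 had 0 of both. The part of the cell types, like that of list length, was not tested.

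The 8 genes together had 12 peaks in hypoxia replicate 1, 41 in hypoxia replicate 2, 0 in each normoxia library and 6 in the EU library. Per 1000 peaks of the list this came to 4.17 and 6.19 in hypoxia, 0 and 0 in normoxia, and 1.19 in the EU library. The groups did not overlap, and the mean in hypoxia was 5.18 ± 1.43 (SD, n = 2) per 1000. On the scale of log2(peaks + 1), hypoxia averaged 4.55 ± 1.20 (SD, n = 2) and normoxia 0. The condition lists repeated the direction, with 33 peaks in the hypoxia list and 0 in the normoxia list. In them 7 of the 8 genes (87.5%) were listed for hypoxia and not for normoxia, against 62.8% of the 3308 genes listed for either condition.

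By gene, all 8 had a peak in hypoxia replicate 2, 4 of 8 (50%) in hypoxia replicate 1, none in either normoxia library and 3 of 8 (37.5%) in the EU library. The 4 found in both hypoxia libraries and in neither normoxia library were PTPRC, CSK, LCP2 and PRKCQ. Over all 3226 genes that these 4 libraries list, 15.3% met the same rule. That background includes genes without a peak in hypoxia replicate 2, which cannot meet the rule, whereas all 8 members had one there. The 492 genes that met it all lie among the 2151 genes of hypoxia replicate 2. In the opposite direction, a peak in both normoxia libraries and in neither hypoxia library, the share was 0.155% of all genes and 0 of the 8. LCK, FYN, LAT and CBLB rested on hypoxia replicate 2 alone among the libraries. An exact two-sided permutation test of a gene's number of peaks, 2 libraries against 2, cannot give a p below 0.333, so no single gene could pass 0.05. That value was reached by PTPRC, CSK, LCP2 and PRKCQ, and the p was 1 for LCK, FYN, LAT and CBLB.

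**Figure D1:**
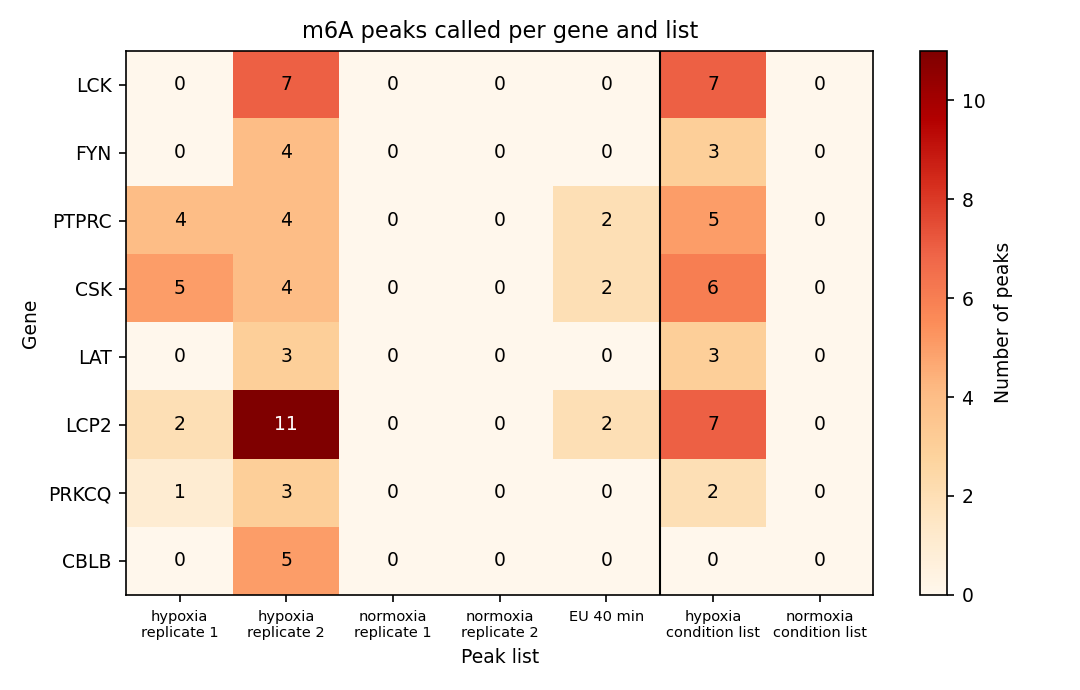
Number of m6A peaks (cell numbers and colour) for each of the 8 genes (rows) in 5 libraries and, right of the line, 2 condition lists (columns). All 3 normoxia columns are at 0, hypoxia replicate 2 runs from 3 to 11 peaks per gene, and CBLB is the gene with 5 peaks there and 0 in the hypoxia condition list.

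The absence from normoxia has to be read against the length of those lists. As a share of all genes with a peak, the 8 genes made up 0.318% (exact 95% binomial interval 0.0867 to 0.812) in hypoxia replicate 1 and 0.372% (0.161 to 0.732) in hypoxia replicate 2. For 0 of 139 and 0 of 897 genes in the normoxia libraries the interval reached up to 2.62% and 0.41%, and both include the hypoxia shares. At the share of hypoxia replicate 2, a list as long as normoxia replicate 1 would hold 0.517 of these genes, one as long as normoxia replicate 2 3.34, and one as long as the normoxia condition list 4.58. Taken 1 library at a time, these intervals thus did not set the share of the 8 in normoxia apart from that in hypoxia. The 2 normoxia libraries were not tested together. The reference share also comes from a library in which all 8 had a peak, the most it could hold. The normoxia condition list went further, since for 0 of 1231 genes its interval ended at 0.299%, below the shares of both hypoxia libraries but above the 0.265% (0.107 to 0.546) of the hypoxia condition list. In the EU library 3 of 2389 genes made a share of 0.126% (0.0259 to 0.367). Scaling the share of hypoxia replicate 2 to that length would exceed the 8 genes there are, so no expected number is given. By peaks, the rate of hypoxia replicate 2 would give 1.31 and 9.68 in the normoxia libraries and 31.2 in the EU library, but peaks of a gene are not independent counts. These intervals cover counting error only.

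**Figure D2:**
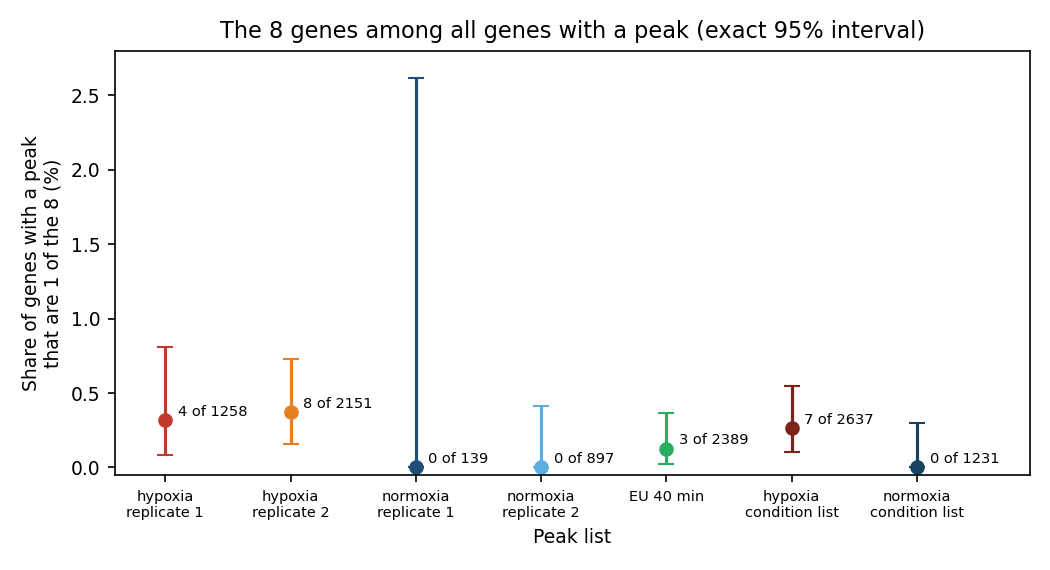
Share of all genes with a peak that are 1 of the 8 (points, in %), with exact 95% binomial intervals (bars) and the counts beside each point, for the 5 libraries and 2 condition lists. The normoxia points are at 0, with upper limits of 2.62% and 0.41% in the libraries, so their intervals overlap those of hypoxia.

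Most genes called in hypoxia replicate 2 were missing from normoxia. Of its 2151 genes, 4.37% recurred in normoxia replicate 1 and 15.7% in normoxia replicate 2, beside 0 of the 8, and 81.3% had no peak in either library. Leaving out the genes of the normoxia condition list as well, 73.8% remained. All 8 members had at least 3 peaks in hypoxia replicate 2. Among the 1010 genes that did, a background chosen after the members' values were seen, the corresponding shares were 82.3% and 74.4%. The members stood at 8 of 8 on both counts. Of these 1010 genes 35.8% also had a peak in hypoxia replicate 1, against 4 of the 8, and 43.3% had one in the EU library, against 3 of the 8.

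**Figure D3:**
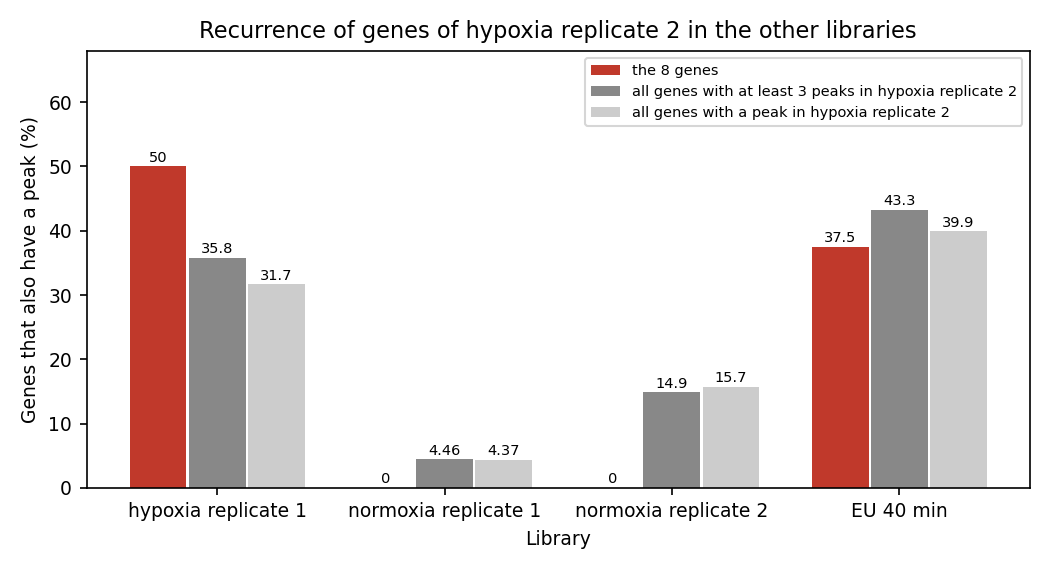
Share of genes (bars, in %) that also had a peak in each of 4 other libraries, for the 8 genes, for all 1010 genes with at least 3 peaks in hypoxia replicate 2, and for all 2151 genes with a peak there. The 8 genes are at 50% against 35.8% and 31.7% in hypoxia replicate 1, at 0 in both normoxia libraries, and at 37.5% against 43.3% and 39.9% in the EU library.

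Among the kinases that start the signal, LCK, which phosphorylates the receptor chains, had 0 peaks in hypoxia replicate 1, 7 in hypoxia replicate 2 and 0 in the normoxia and EU libraries. The hypoxia condition list also had 7, and 5 of the 7 were the same peaks to the base. LCK lies on the plus strand at chromosome 1, 32251265 to 32286165 (RefSeq, GRCh38.p14), and its 7 peaks covered 1204 bases in 12 exon blocks. Blocks are read here as exons or parts of exons, which was not checked against an exon annotation. The deposited p of the 7 peaks was 1.9e-06 or 2.3e-06, which put the best of them at place 1428 of 6621 in the list. The first peak had 2 blocks far apart and ran from 32251289, 24 bases after the RefSeq start, to 32274127. Its second block of 17 bases straddles a second start of LCK, the one in the RefSeq promoter table. LCK is known to have 2 promoters, and the sequence is shown because this peak joins a block just after the first start to a block over the second. It lies at chr1:32274111-32274127 (plus strand), and capitals mark the 7 bases from that second start on.
LCK: gtgtgaatttACTTGTA

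A further 4 LCK peaks lay between 32274327 and 32279981, among them one of 4 blocks at 32275376 to 32276361. The last pair, at 32285567 to 32285717 and 32285866 to 32286016, started at 98.3% of the gene span. LCK peaks thus reached from the first to the last stretch of the gene in a single library.

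FYN, the second SRC family kinase of the receptor, had 0 peaks in hypoxia replicate 1, 4 in hypoxia replicate 2 and 0 in the other 3 libraries. The gene is on the minus strand at chromosome 6, 111660332 to 111873452, a span of 213.1 kb. The peaks at 111661923 to 111676527 and at 111694456 to 111696525 had 3 blocks each, and a single block of 100 bases lay at 111661526 to 111661625, near the 3' end. These had a deposited p of 0.00013. The fourth, at 111793640 to 111793789, had 0.0044 and was not overlapped by the hypoxia condition list, which had 3 FYN peaks. Of the related kinase genes SRC, YES1, LYN, FGR, BLK and FRK, none had a peak in any hypoxia or normoxia list, and LYN had 1 in the EU library.

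PTPRC, which encodes the phosphatase CD45 that clears the inhibitory phosphate from LCK, had 4 peaks in each hypoxia library, 0 in each normoxia library and 2 in the EU library. It spans 118.8 kb on the plus strand of chromosome 1, 198638713 to 198757476. The 2 hypoxia libraries had the same number of peaks but not the same extent: 801 bases in 11 blocks were covered in replicate 1 and 2942 bases in 24 blocks in replicate 2. All 801 bases of replicate 1 lay within those of replicate 2. Replicate 2 had a peak of 12 blocks at 198716826 to 198741997 and one of 9 blocks at 198742302 to 198756386, and each held 2 separate peaks of replicate 1 and 1 of the EU library. The 12-block peak had the most blocks of any member peak. Both EU peaks, at 198732498 to 198735231 and 198749507 to 198750599, lay wholly under blocks of hypoxia replicate 2, and 400 of their 450 bases were also covered in replicate 1. All PTPRC peaks of the libraries started 69.5 kb or more from the gene start, at 58.5% of the span or later. Deposited p values were 0.00068 for all 4 in replicate 1, 0.00029 for 3 and 0.01 for 1 in replicate 2, and 0.0011 for both EU peaks.

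CSK, the kinase that adds the inhibitory phosphate to LCK and FYN, had 5 peaks in hypoxia replicate 1, 4 in hypoxia replicate 2, 0 in each normoxia library and 2 in the EU library. The mean in hypoxia was 4.5 ± 0.707 (SD, n = 2). CSK was the member with the smallest deposited p in hypoxia replicate 1, 6.3e-06, and in the hypoxia condition list, 5.2e-07 at place 494 of 7669. The gene lies at chromosome 15, 74782080 to 74803197, plus strand, and every CSK peak lay 16.6 kb or more from its start, in the last stretch of a gene of 21.1 kb. A peak of 100 bases at 74798671 to 74798770 was called with identical limits in both hypoxia libraries and in the hypoxia condition list. The next, of 2 blocks ending at 74800511, started at 74799393 in replicate 1 and 74799343 in replicate 2. At 74800760 replicate 1 had a peak of 100 bases and replicate 2 one of 199 bases, and the first EU peak, 74800859 to 74800958, covered the second part of the longer one. That EU peak shared 100 bases with replicate 2 and 1 base with replicate 1.

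Toward the 3' end of CSK the hypoxia libraries had neighbouring rather than shared peaks, with an EU peak between them. Hypoxia replicate 2 had 74802057 to 74802503 in 2 blocks, the EU library 74802403 to 74802552 and hypoxia replicate 1 74802552 to 74802751. The EU peak shared 101 bases with replicate 2 and 1 base with replicate 1, and the hypoxia peaks did not touch each other. Replicate 1 alone had a last peak at 74802950 to 74803049. The hypoxia condition list had a peak overlapping each of these hypoxia peaks, 6 in all.

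**Figure D4:**
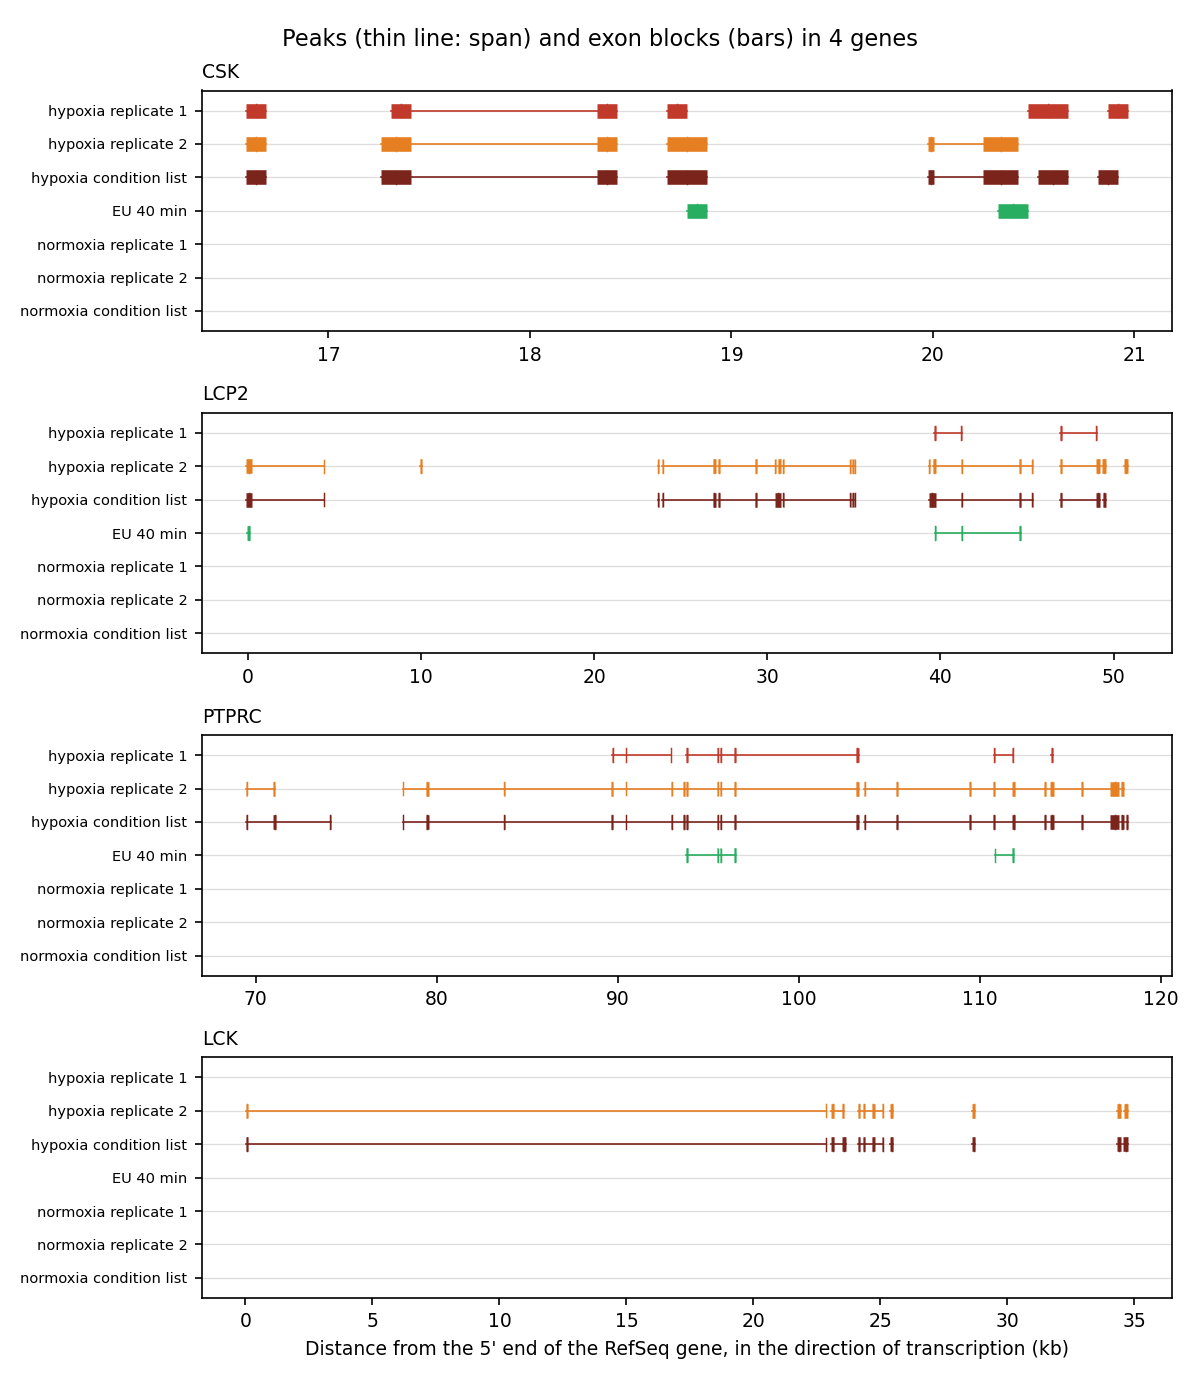
Peaks in CSK, LCP2, PTPRC and LCK by list (rows), with the distance from the 5' end of the RefSeq gene in kb along the direction of transcription (x axis); bars and ticks are exon blocks and thin lines join the blocks of a peak. CSK peaks of the 2 hypoxia libraries and the EU library lie 16.6 kb or more from the start, LCP2 and PTPRC peaks of hypoxia replicate 1 and EU lie inside those of hypoxia replicate 2, LCK peaks come from hypoxia replicate 2 and the hypoxia condition list, and the normoxia rows are empty.

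LAT, the membrane adaptor that ZAP70 phosphorylates, had 0 peaks in hypoxia replicate 1, 3 in hypoxia replicate 2 and 0 in the other 3 libraries. Its 3 peaks had 2, 3 and 2 blocks, lay at chromosome 16, 28985295 to 28985739, 28986580 to 28987585 and 28989967 to 28990584, and were repeated base for base in the hypoxia condition list. The deposited p ran from 6.6e-05 to 7.2e-05. This locus carries a second name. Peaks named RP11-264B17.3 lay on the same strand inside the LAT span, 3 of them in hypoxia replicate 2, sharing 250, 230 and 446 bases with the 3 LAT peaks. In hypoxia replicate 1 the only peak on this strand of the span, at 28989778 to 28990019, had that second name and shared 53 bases with the last LAT peak. Reads of these overlapping names cannot be told apart in the lists, so LAT values are uncertain. Counting by position, LAT would join the genes found in both hypoxia libraries and in neither normoxia library, which makes 5 of 8.

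LCP2, which encodes the adaptor SLP-76, had the most peaks: 2 in hypoxia replicate 1, 11 in hypoxia replicate 2, 0 in each normoxia library and 2 in the EU library. The hypoxia replicates differed widely, with a mean of 6.5 ± 6.36 (SD, n = 2). The gene lies on the minus strand of chromosome 5, 170246233 to 170297777, and the 11 peaks of replicate 2 covered 2706 bases in 23 blocks from one end of it to the other. Both peaks of replicate 1, at 170248735 to 170250844 and 170256553 to 170258164, were covered in full by replicate 2. Their deposited p was 0.0074 and 0.004, at places 2863 and 2825 of 2879, while the best of replicate 2 was 6.9e-05. One EU peak, at 170253141 to 170258114 in 3 blocks, met the second of these: 101 of its 201 bases were covered in replicate 1 and all 201 in replicate 2.

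The other EU peak of LCP2 lay at the very start of the gene, at 170297628 to 170297827, inside a block of the replicate 2 peak at 170293367 to 170297877. Both reached past the RefSeq start at 170297777, by 50 bases in the EU library and by 100 bases in hypoxia replicate 2. The 100 bases are shown because they are peak sequence upstream of the annotated start, called in the EU library and in hypoxia replicate 2. They lie at chr5:170297778-170297877 (minus strand, RefSeq, GRCh38.p14), and capitals mark the 50 bases that both peaks cover.
LCP2: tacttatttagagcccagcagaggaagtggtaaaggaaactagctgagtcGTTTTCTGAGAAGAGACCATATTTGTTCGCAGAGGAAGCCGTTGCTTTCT

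The usual consensus of m6A sites is A, G or T, then A or G, then AC, then A, C or T. In these 100 bases it had 2 matches on the sense strand, AAACT and AGACC, and 1 on the other strand, GAACA. Such matches are common, as 71.7% of the 35116 RefSeq promoters hold one on the sense strand in the 100 bases before the start and 90.8% on either strand. The shorter core GGAC, which overlaps that consensus, had 0 matches on either strand, against 30.6% of promoters with it on the sense strand and 51.4% on either. A match is a description of the letters and not a methylated site, and no match says only that the letters are not in this window. The numbers of LCP2 peaks over the 5 libraries were nearest to those of KMT2D, a histone methyltransferase gene, at a summed absolute difference of 2 peaks, and ARHGEF1, IKZF3, SPOCK2 and CSF1 followed at 3 each. ARHGEF1 encodes a guanine nucleotide exchange factor, IKZF3 a lymphoid transcription factor and CSF1 a macrophage growth factor.

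PRKCQ, which encodes protein kinase C theta, had 1 peak in hypoxia replicate 1, 3 in hypoxia replicate 2 and 0 in the other 3 libraries. The 100 bases of replicate 1, at chromosome 10, 6511073 to 6511172, lay within a peak of 4 blocks of replicate 2 at 6511023 to 6580251, which reached from 0.395 to 69.6 kb after the gene start. These calls were weak within their lists. The deposited p was 0.001 in replicate 1, at place 2724 of 2879, and 0.0066 for all 3 peaks of replicate 2, the first at place 6444 of 6621.

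CBLB, the ubiquitin ligase that restrains the pathway, had 0 peaks in hypoxia replicate 1, 5 in hypoxia replicate 2 and 0 in the other 3 libraries. It was the only one of the 8 with no peak in the hypoxia condition list, where 19.7% of all genes of hypoxia replicate 2, and 12.3% of those with at least 3 peaks there, were also missing. A pair lay near the gene start at chromosome 3, 105868901 to 105869050 and 105867457 to 105868751, and 3 lay 123.5 kb or more downstream, the last at 105702333 to 105702433. Their deposited p was 3e-06 to 4e-05, and the best was at place 1804 of 6621. A small deposited p in hypoxia replicate 2 thus did not go with a peak in the condition list for this gene.

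Recurrence was then counted by site, a site being all peaks of 1 gene, in any of the 5 libraries, whose exon blocks overlap by at least 1 base. The 8 genes had 42 sites, 41 of them in hypoxia replicate 2, 10 in hypoxia replicate 1, 6 in the EU library and 0 in normoxia. Of the 42, 9 (21.4%) were found in both hypoxia libraries, against 14.8% of all 7769 hypoxia sites. By gene these were 4 in CSK, 2 each in LCP2 and PTPRC, and 1 in PRKCQ. In 8 of the 9 the hypoxia peaks overlapped directly, and the ninth, near the 3' end of CSK, was joined through the EU peak. Of the 42 sites, 6 (14.3%) were also found in the EU library, 2 each in CSK, LCP2 and PTPRC, against 18.8% of all hypoxia sites, and 5 of these 6 were in both hypoxia libraries as well. Among all hypoxia sites, 6.81% recurred in a normoxia library. The remaining 32 sites were in 1 library each, 31 in hypoxia replicate 2 and 1 in hypoxia replicate 1.

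Counted by peak, 10 of the 12 member peaks of hypoxia replicate 1 (83.3%) were overlapped by a peak of the same gene in hypoxia replicate 2, against 47% of all 2879 peaks of that list. In reverse it was 8 of 41 (19.5%), against 18.7% of 6621. All 6 EU peaks were overlapped by hypoxia replicate 2 and 5 of 6 by hypoxia replicate 1, against 29.4% and 15.2% of all 5044 EU peaks. Of those 5, the 2 EU peaks of CSK shared only 1 base each with hypoxia replicate 1. The shares over all peaks also count peaks of genes with none in the other list, whereas all 8 genes had peaks in hypoxia replicate 2. The hypoxia condition list overlapped 33 of the 41 member peaks of replicate 2 (80.5%), against 71.4% of all peaks of that library. Of replicate 1 it overlapped all 12, against 60.4% of all peaks there. The condition list repeated 21 of the 41 (51.2%) exactly, against 41.5% of all peaks of replicate 2. Of the 12 it repeated 1 (8.33%), against 13.5% of all peaks of replicate 1. If that list was made from the same libraries, these overlaps are no independent evidence.

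Member peaks were more often split into blocks than the peaks of the whole list. In hypoxia replicate 2, 24 of 41 (58.5%) had more than 1 block, against 36.7% of all peaks, and in hypoxia replicate 1 it was 6 of 12 against 35.9%. The median width of member peaks, blocks summed, was 200 and 126 bases, against 151 and 150 in the lists. Peaks of a gene were not independent values either: 44 of the 59 member peaks (74.6%) had the same deposited p as another peak of that gene in that library, against 47.9% of all peaks, so that the 59 peaks held 30 distinct values. These shares are given as descriptions with no test.

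The rest of the pathway was taken from lists of its branches, several of which share genes with the marker lists. Receptor chains and coreceptors had a peak in 5 and 7 of 11 genes in the hypoxia libraries, 1 and 0 in normoxia and 9 in the EU library. CD3E and CD247, which encode signalling chains of the receptor complex, had 4 and 5, and 1 and 6, peaks in hypoxia and none in normoxia, and TRBC2, a receptor constant chain, had 1 and 2. TRAC, the alpha chain, overlapped between the groups, with 2 and 1 in hypoxia and 2 and 0 in normoxia. Other proximal kinases and adaptors had a peak in 5 and 9 of 22 genes in hypoxia, 0 in both normoxia libraries and 4 in the EU library. Of these, FYB1 (listed as FYB) and SKAP1, adaptors that link SLP-76 to integrins, had 1 and 6, and 2 and 5, peaks in hypoxia, and SH2D2A and SLA2, both adaptors with SH2 domains, had 2 and 4, and 3 and 4. ZAP70, which joins LCK to LAT and LCP2 in the pathway, had no peak in the 5 libraries and 7 in the hypoxia condition list.

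Negative regulators had a peak in 4 and 5 of 17 genes in hypoxia, 0 in both normoxia libraries and 3 in the EU library. PAG1, the membrane anchor of CSK, had 6 and 5 peaks in hypoxia, 0 in normoxia and 1 in the EU library, and SLA, CD5 and the lipid phosphatase gene INPP5D had 4 and 5, 2 and 2, and 2 and 9 in hypoxia. The calcium, RAS and NF-kB branch had a peak in 7 and 10 of 23 genes in hypoxia, 0 and 2 in normoxia and 6 in the EU library. SOS1 and RASGRP1, which activate RAS, had 10 and 9, and 4 and 8, peaks in hypoxia, and RELA, an NF-kB subunit, had 5 and 3. RASGRP1 and ORAI1, a calcium channel subunit, each had 1 peak in normoxia replicate 2. In both hypoxia libraries and in neither normoxia library, the counts were 4 of 11, 4 of 22, 4 of 17 and 5 of 23, or 4 of 7, 4 of 10, 4 of 5 and 5 of 12 of the genes with a peak in the 4 libraries, beside the 15.3% of all such genes.

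**Figure D5:**
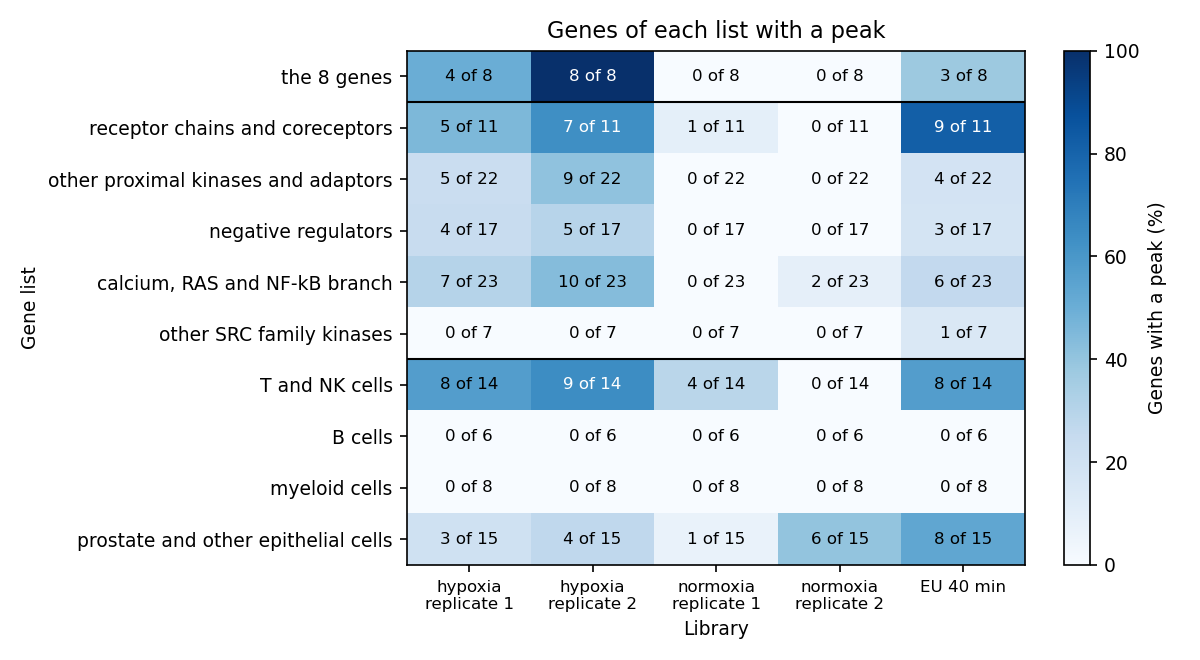
Number and share (colour, in %) of genes with a peak in each of 5 libraries (columns) for the 8 genes, 5 lists of related genes and 4 lists of cell type markers (rows). T and NK cell markers are at 8 and 9 of 14 in the hypoxia libraries and 0 of 14 in normoxia replicate 2, where epithelial markers are at 6 of 15.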

How the data were processed

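MeRIP-seq peak lists of 5 pulled-down samples and 2 condition lists were read as deposited; the 5 inputs were not analysed here. STAR and the build hg38 are named, per the submitters' processing notes. Caller, threshold, annotation and how inputs and strand were used are not given in the sources used here. Per peak, the authors' p-value per peak was read from column 5 of 12, which runs up to 0.013; no header names it. Coordinates count from 1, so 1 was added to each start. Members are rows whose column 4 equals a symbol, and gene spans and promoter sequences are from RefSeq, GRCh38.p14 (all 8 symbols matched). Overlap needed 1 base of exon block on the same strand and gene name. Counts were described beside those of all genes. Exact binomial (Clopper-Pearson) 95% intervals and exact permutation tests used SciPy 1.17.1 under Python 3.11.15. Joining into sites was tested on simulated data.

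The members and lists were chosen with earlier results of these data known. Named were all 8 members; of each list up to 4 genes with a peak in both hypoxia libraries and up to 2 with one in normoxia, by smallest p; and the 5 genes with peak numbers nearest to those of the member with most peaks. ZAP70, other SRC family kinases and the markers without peaks were named outside this rule, after their values were seen, and some genes that the rule names are not reported here. Alternatives concerned p, width, list length, assignment, overlap, pseudocount, condition lists and replicates.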

Additional observations from a re-analysis of the deposited data

How the results depend on the processing

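Over 5 results and 47 values under other settings, 34 stayed within 1 SD or 1.5 times of the value reported, 13 moved further and 0 reversed. By gene name every normoxia list had 0 member peaks, so no difference could fall below 0, and the other results are counts. The absence of reversals is thus no sign of stability. When lists kept only the 50% of peaks of smallest p, the log2(peaks + 1) difference of 4.55 was 3.29, the 4 genes found in both hypoxia libraries and neither normoxia library became 1 (CSK), the 9 sites in both hypoxia libraries became 3 and the 6 sites shared with the EU library became 0. With each library shortened to 212 peaks, all 5 values were 0 (0.00 on the log2 scale), as no member peak was among the first 212 of any list. Keeping peaks of 151 bases (the median) or more left 5 sites in both hypoxia libraries. The condition lists gave 7 genes for hypoxia alone, beside 62.8% of 3308 genes.

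Without 1 replicate the log2 difference ran from 3.70 to 5.39, peaks per 1000 from 4.17 to 6.19, the genes from 4 to 8, the sites in both hypoxia libraries from 9 to 41 and those shared with the EU library from 5 to 6. The highest counts of genes and sites are those without hypoxia replicate 1, where 1 hypoxia library has to hold the peak in place of 2, which raises them by construction. With the replicate number as a block (replicate block) the log2 difference was 4.55, the same by construction, and the labels do not say that the numbers pair the cultures. Leaving out either normoxia library changed none of the 5 values, again by construction, since both hold 0 member peaks. These runs are counted among the 34 values that stayed. The normoxia lists are the shortest of the 5 libraries, and read depth, which the lists do not give, limits every count of 0.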
